A study of Homo sapiens with 6 samples.

Results

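HT-29 is a human colorectal adenocarcinoma cell line, and HT29-tsp53 is its derivative carrying a murine p53 transgene. The transgene product is temperature sensitive, and the labels write its substitution as V135A. The comparison described here set cells held for 16 h at 32 °C, where the transgene product is active (p53 on), against cells kept at the restrictive temperature, where it is inactive (p53 off). It used 4 of the study's 6 arrays: p53 on and p53 off, each from experiment 1 and experiment 2, with differences taken within an experiment. The other 2 arrays, p53 on for 16 h and then returned for 6 h, entered the filter on dim genes and the estimate of the spread. In fits that left out a compared array, they also helped to estimate the difference between the experiments. The restrictive temperature is written as 38 °C in part of the labels and as 37 °C elsewhere in them. Both groups carried the transgene, no line without it was analysed here, every p53 on array came from 32 °C and every p53 off array from the restrictive temperature, so the effects of active p53 and of the cooler incubator cannot be told apart. The labels describe moving a dish of subconfluent cells and do not say whether the experiments were separate cultures, so the p-values measure the spread between these arrays, which may be technical.

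p53 is a transcription factor that binds DNA as a tetramer and switches on genes for cell cycle arrest, DNA repair, cell death, autophagy, metabolism and its own destruction. Many genes of DNA replication and mitosis fall when it is active. That fall is generally traced to p21, the product of CDKN1A, which inhibits cyclin-dependent kinases and so leaves the retinoblastoma family proteins and the DREAM complex bound at E2F and CHR promoter elements. In the intestinal epithelium, dividing stem and progenitor cells lie at the crypt base and differentiated absorptive and mucus-secreting cells lie above them.

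Each RNA was hybridised to 1 Affymetrix Human Gene 1.0 ST array, a design whose probe sets lie along the exons of each gene. The values were log2 signals, and a difference of 1 is a 2-fold change. A gene's value on an array was the median of the probe sets that carried only its symbol, over a median of 10 probe sets. Of 18701 genes, 14026 passed a filter that removed the dimmest 25% (mean log2 signal over all 6 arrays under 3.62). Array medians lay between 5.24 and 5.31. Keratins 8 and 18 were among the brightest epithelial markers on all 4 arrays (log2 11.42 to 12.51 for KRT8 and 11.96 to 12.64 for KRT18), EPCAM lay between 8.51 and 10.17, and 14 of 15 epithelial markers passed the filter. CDH17, an intestinal cadherin, did not pass it. Of the markers of other cell types, 5 of 10 for fibroblasts, 5 of 10 for leukocytes and 4 of 7 for endothelium passed. The defining leukocyte marker PTPRC and the fibroblast markers DCN and FAP were below it. LYZ, which encodes lysozyme and is in the leukocyte list, was brighter than EPCAM on all 4 arrays (log2 10.81 to 11.52). ENG of the endothelial list (6.01 to 6.30) and COL1A1 of the fibroblast list (5.26 to 5.81) also passed. Only TEK, an endothelial receptor, was called among those 3 lists, with a difference of -0.77.

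The 4 promoter sequences below belong to genes that rose strongly with p53 on, and each holds a stretch resembling the 20-base consensus to which the p53 tetramer binds. They are RefSeq sequences of GRCh38.p14, written 5′ to 3′ on the strand of the gene, with the resembling stretch in capitals. MDM2 encodes the ubiquitin ligase that degrades p53, and its stretch, 94 bases before a start site, departs from the consensus at 2 positions (chr12:68808883-68808982, plus strand). FAS encodes a death receptor, and its stretch lies 122 bases before the start, also with 2 departures (chr10:88991269-88991368, plus strand). DDB2 encodes a sensor of ultraviolet damage, and its stretch, with 1 departure, begins 5 bases before the start and runs past it (chr11:47214929-47214988, plus strand). SESN1 encodes a stress-induced inhibitor of growth signalling, with 3 departures at 49 bases before the start (chr6:109008989-109009077, minus strand).
MDM2: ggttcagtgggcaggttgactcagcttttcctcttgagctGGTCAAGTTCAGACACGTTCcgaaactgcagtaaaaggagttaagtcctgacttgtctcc
FAS: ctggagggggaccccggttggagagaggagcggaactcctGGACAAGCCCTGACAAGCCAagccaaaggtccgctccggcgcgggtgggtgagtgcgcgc
DDB2: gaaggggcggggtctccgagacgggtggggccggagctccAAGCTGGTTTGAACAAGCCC
SESN1: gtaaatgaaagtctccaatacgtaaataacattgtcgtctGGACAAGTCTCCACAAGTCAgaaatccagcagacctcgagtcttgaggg

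The next 4 belong to genes that fell, and hold elements of the kind bound by E2F and DREAM complexes. In CLSPN, which encodes the checkpoint adaptor claspin, and GINS2, a subunit of the replicative helicase, the capitals mark GCGGGAAA, the reverse complement of the E2F element TTTCCCGC. The element begins 5 bases before the start in CLSPN and runs past it (chr1:35769976-35770023, minus strand). In GINS2 it begins 31 bases before the start (chr16:85688955-85689025, minus strand). CDC25A, which encodes a phosphatase that activates cyclin-dependent kinases, holds TTTGGCGC 44 bases before the start (chr3:48188418-48188501, minus strand). HMMR, which encodes a spindle-associated protein, holds 2 adjoining copies of the CHR element TTTGAA, the first 28 bases before the start (chr5:163460564-163460631, plus strand).
CLSPN: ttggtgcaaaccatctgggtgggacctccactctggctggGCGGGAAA
GINS2: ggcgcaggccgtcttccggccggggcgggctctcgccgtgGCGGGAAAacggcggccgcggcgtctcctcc
CDC25A: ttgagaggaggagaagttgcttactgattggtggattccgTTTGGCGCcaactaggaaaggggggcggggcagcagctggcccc
HMMR: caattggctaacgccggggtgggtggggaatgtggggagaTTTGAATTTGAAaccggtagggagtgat

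Promoter windows of 300 bases (250 before to 50 after a RefSeq start) were matched for 11101 of the tested genes and searched on both strands. A match to the p53 20-base consensus, with at most 3 mismatches and its invariant C and G bases kept, was found for 180 of these genes (1.62%). It was found for 25 of 570 matched genes that rose (4.39%), for 14 of 149 that were at least 2-fold higher in both experiments (9.4%) and for 5 of 726 that fell (0.689%). The 10-base consensus, of which the 20-base one is a repeat, was present for 7.43% of all tested genes, 12.6% of those that rose and 7.16% of those that fell. TTTGAA was present for 13.3% of tested genes and 22.5% of genes that fell, CCAAT for 41.9% and 50%, TTTCCCGC for 3.07% and 6.34%, and TTTGGCGC for 1.23% and 3.58%. Among genes that rose, the shares were 16.3%, 42.8%, 1.4% and 0.877% in the same order. Over all 27305 genes in the reference table, 1.37% held the 20-base match, 18.2% TTTGAA, 39.7% CCAAT, 1.98% TTTCCCGC and 0.795% TTTGGCGC. These shares are a description with no test, and a match is not a site shown to be bound.

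With p53 on, 726 genes rose and 881 fell, which is 5.18% and 6.28% of the genes tested and 11.5% together. A gene was called when limma's moderated test, with the experiment number as a block, gave an adjusted p under 0.05 over all genes tested (Benjamini-Hochberg), with no minimum fold. All 1607 called genes had the same sign in both experiments. The call rests on the mean of these same differences and on their spread, so this agreement is no separate evidence. Without any model, 197 genes were at least 2-fold higher in both experiments (1.4%) and 184 at least 2-fold lower in both (1.31%), and all of these were among the calls. The largest changes were rises: 35 genes were at least 4-fold higher in both experiments against 1 gene at least 4-fold lower, and 10 against 0 passed 8-fold. Most calls were smaller, with a median of 0.92 for rises and -0.90 for falls, and 429 of the rises and 548 of the falls were under 2-fold on average.

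Those counts depended on the pairing and on single arrays. Without the block, limma called 126 genes higher (0.898%) and 82 lower (0.585%), all of them among the blocked calls. Leaving out the p53 off array of experiment 2 gave 348 higher and 265 lower, and leaving out the p53 on array of experiment 2 gave 470 and 413. Without the p53 off array of experiment 1 the counts were 477 and 618, and without the p53 on array of experiment 1 they were 478 and 745. On simulated data of the same size, the blocked fit found 91.4% of true differences as large as 1 log2 unit but 12.1% at 0.5. False calls made up 8.94%, above the nominal 5%. The unblocked fit found 1.5% and 0% of those differences and made 0% false calls. The simulated data carried the experiment differences estimated from these same arrays, so the unblocked fit was bound to do worse. Each run changed 200 genes, fewer than were called here, so these rates may not hold for the real data.

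The experiments gave similar but not identical pictures. Across the tested genes, which are not independent replicates, the difference in experiment 1 correlated with that in experiment 2 at Pearson's r of 0.593 and Spearman's rho of 0.472, given as a description. The difference had the same sign in both for 9128 genes (65.1%), of which 4692 were higher in both and 4436 lower in both. Experiment 1 had 420 genes at least 2-fold higher and 329 lower, and experiment 2 had 408 higher and 614 lower. The median difference over all tested genes was 0.02. For 649 genes the experiments differed by at least 1 log2 unit. CLK1, a splicing kinase, was higher by 0.64 in experiment 1 and differed by -2.02 in experiment 2. CHEK2, a checkpoint kinase, differed by 0.03 and -1.99. PRB4, GPR75, BMP8A and ZNF597 also had opposite signs, and none of these 6 was called.

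**Figure D1:**
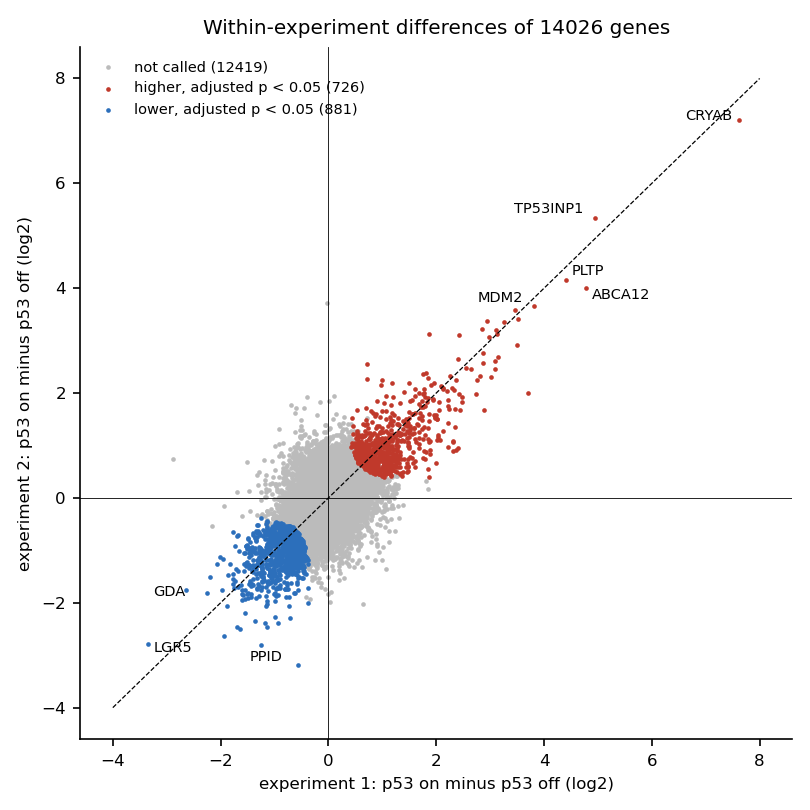
Difference p53 on minus p53 off (log2) of each of 14026 genes in experiment 1 (horizontal axis) against experiment 2 (vertical axis), with the 726 genes that rose in red, the 881 that fell in blue, the others in grey and the line of equal differences dashed. The rises extend to 7.41 on average for CRYAB and the falls to -3.07 for LGR5. Every coloured point has the same sign in both experiments, which the selection of called genes favours.

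CRYAB, which encodes the small heat shock protein alphaB-crystallin, showed the largest rise. Its log2 signal was 2.55 and 2.51 with p53 off and 10.16 and 9.71 with p53 on, in experiments 1 and 2. Since both p53 off values were below the filter value of 3.62, the rise is given as at least 79.8-fold (measured difference 7.41 ± 0.18, limma SE, n = 2 per group). HSPB1, which encodes HSP27, differed by -0.45 and 0.42. Of 10 small heat shock genes on the array 6 passed the filter, and CRYAB was the 1 called. The filter used the mean over all 6 arrays. CRYAB, like TP53INP1 and ABCA12 below, passed it only through arrays other than p53 off. TP53INP1, a p53-induced nuclear and autophagy protein, went from 3.38 and 2.21 to 8.32 and 7.54, at least 19.9-fold. ABCA12, a lipid transporter of skin, went from 2.73 and 2.67 to 7.52 and 6.66, at least 11.1-fold. In all 3 genes the p53 on arrays were far above both p53 off arrays.

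Genes whose group means lay above the filter value in both states included several established p53 targets. PLTP, a phospholipid transfer protein, rose from 5.02 and 4.74 to 9.43 and 8.89 (4.28 ± 0.18, 19.4-fold). MDM2 rose from 7.51 and 7.31 to 10.97 and 10.89 (3.52 ± 0.17, 11.5-fold), with all 16 of its probe sets higher in both experiments. GADD45A, a stress sensor that slows the cycle, rose from 6.50 and 6.71 to 10.02 and 10.13 (3.47 ± 0.17). In these 3 genes both p53 on arrays were more than 3 log2 units above both p53 off arrays. LAPTM5, a lysosomal membrane protein best known in blood cells, rose from 3.95 and 3.40 to 6.89 and 6.78 (3.16 ± 0.24). Its p53 off signal in experiment 2 was below the filter value, and its p53 off mean of 3.67 was close to it. TRIM29, an epithelial tripartite motif protein, rose by 3.12 in experiment 1 and 3.12 in experiment 2. CES2, a carboxylesterase that activates the prodrug irinotecan, rose by 2.97 and 3.07. The remaining genes among the 15 largest rises were FAS, CDKN1A, GDF15, ZMAT3 and RRM2B, between 2.85 and 3.30, and ANKRA2, whose p53 off mean was below the filter value, at least 5.79-fold.

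The largest fall was that of LGR5, the receptor for R-spondins that marks crypt base stem cells. Its log2 signal was 8.61 and 8.62 with p53 off and 5.26 and 5.83 with p53 on (-3.07 ± 0.20, 8.40-fold lower), and all 18 probe sets were lower in both experiments. GDA, guanine deaminase, fell from 8.16 and 7.64 to 5.51 and 5.88 (-2.21 ± 0.23). CLDN2, a pore-forming claudin of the crypt, fell from 10.07 and 9.51 to 7.81 and 7.71 (-2.03 ± 0.20). These genes differed by more than their spread in both fits. ADRA2A, the alpha-2A adrenergic receptor, fell from 7.02 and 6.69 to 4.82 and 5.18. FAM111B, a cell cycle-regulated protease, fell from 7.53 and 7.66 to 5.88 and 5.16. PPID, a cyclophilin that works with HSP90, fell unevenly, from 7.45 to 6.19 and from 6.66 to 3.86, and was not called without the block (adjusted p = 0.253, limma). CENPI, a centromere protein, MYBL1, a Myb family factor, GINS2, HIST1H2BF, ESCO2, a cohesin acetyltransferase, MUDENG, an adaptor subunit, SKP2, a ubiquitin ligase subunit that degrades p27, RTKN2 and HMMR made up the 15, between -1.97 and -1.73. With p53 on, MYBL1 and RTKN2 averaged below the filter value, so their falls are at least 2.41-fold and 2.82-fold.

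**Figure D2:**
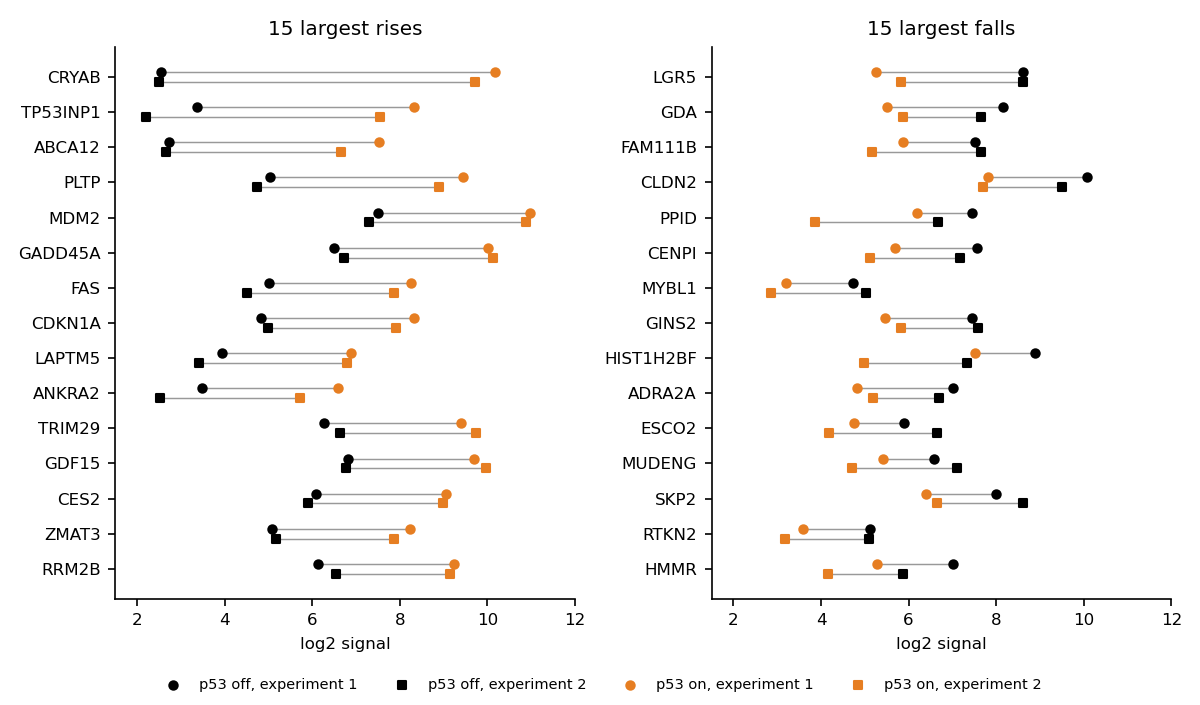
Log2 signal (horizontal axis) of the 15 genes with the largest rises (left) and falls (right) on the 4 arrays, with p53 off in black, p53 on in orange, experiment 1 as circles, experiment 2 as squares and a line joining the arrays of an experiment. LGR5 went from 8.61 and 8.62 to 5.26 and 5.83, while HIST1H2BF overlapped between groups, since its p53 on signal in experiment 1 (7.51) was above its p53 off signal in experiment 2 (7.33).

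Known p53 targets were grouped by role into 7 lists, which share some members. Over the 136 tested genes of these lists, 62 rose (45.6%, against 5.18% of all genes) and 5 fell (3.68%, against 6.28%). They made up 8.54% of all genes that rose and 23.9% of those at least 2-fold higher in both experiments. The lists were compiled from the p53 literature with earlier results of these arrays known, so their direction is not independent evidence.

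Among inhibitors of the cell cycle and growth, 12 of 21 tested rose (57.1%, against 5.18% of all genes), none fell and the median difference was 1.40. CDKN1A, which encodes p21, rose from 4.83 and 4.99 to 8.32 and 7.91 (3.21 ± 0.19, 9.23-fold). ZMAT3, an RNA-binding zinc finger protein, rose from 5.08 and 5.18 to 8.23 and 7.86. For both genes the lowest p53 on array was well above the highest p53 off array. SESN1 rose from 5.10 and 4.62 to 8.18 and 7.09, and its relative SESN2 from 5.29 and 5.81 to 7.03 and 7.13. BTG2, an antiproliferative cofactor of mRNA deadenylation, rose by 2.54 and 2.47, and PRDM1, a transcriptional repressor, by 2.86 and 2.57 (at least 4.65-fold). CCNG1, cyclin G1, rose unevenly, by 2.07 and 1.11, and was not called without the block (limma adjusted p = 0.276). PHLDA3, an inhibitor of AKT, PLK3, TOB1 and FBXW7 rose by 1.67, 1.58, 1.40 and 0.94. Values for the uncalled members included 0.19 for SFN, which encodes 14-3-3 sigma, 0.61 for PLK2 and -0.12 for BTG3. Without the block 6 of the 12 were called.

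In the cell death list 12 of 21 rose (57.1%, against 5.18% of all genes) and none fell, with a median of 0.71. FAS rose from 5.01 and 4.51 to 8.26 and 7.86 (3.30 ± 0.17, 9.85-fold), and TNFSF10, which encodes the ligand TRAIL, from 4.27 and 3.36 to 6.68 and 6.47 (2.76 ± 0.21). TP53I3, the quinone oxidoreductase also in the metabolic list, rose by 2.32 and 2.05. The TRAIL receptors TNFRSF10B, TNFRSF10D (a decoy) and TNFRSF10A rose by 1.37, 1.33 and 0.95. LRDD, which encodes the PIDD scaffold, rose from 5.57 and 5.49 to 7.51 and 7.37. On the mitochondrial side, BAX, a pore-forming protein, rose from 7.64 and 7.24 to 8.93 and 8.65 (1.35 ± 0.17), and BBC3, which encodes PUMA, by 0.73 and 0.86. BCL2L1, whose main product protects cells, also rose, by 0.70 and 0.72. PMAIP1, which encodes NOXA, differed by -0.75 and 0.32, and BAK1, APAF1, BID, PERP and AEN were not called, with differences from 0.06 to 0.65. Without the block 7 of the 12 were called.

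DNA repair members rose in 7 of 17 cases (41.2%, against 5.18% of all genes) and fell in 2 (11.8%, against 6.28%). Their median was 0.47. DDB2 rose from 6.27 and 6.28 to 8.92 and 8.74 (2.55 ± 0.17, 5.87-fold), with the arrays of each group close together. XPC, its partner in damage recognition, rose from 5.16 and 5.36 to 7.17 and 6.47. RRM2B, a ribonucleotide reductase subunit that supplies nucleotides for repair, rose from 6.14 and 6.55 to 9.23 and 9.15, whereas RRM2, the subunit used in S phase, fell from 6.45 and 6.16 to 5.75 and 4.89. POLH, the translesion polymerase eta, rose by 1.91 and 2.16, while POLK, the related polymerase kappa, fell by 0.76 and 1.65. PCNA, the sliding clamp of replication and a known p53 target, differed by 0.03 and 0.07. FANCC, a Fanconi anaemia protein, was the other member that fell (-0.76).

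Of 16 feedback regulators of p53, 4 rose (25%, against 5.18% of all genes), 1 fell (6.25%, against 6.28%) and the median was 0.09. Without the block 2 were called higher and none lower. MDM2, TP53INP1, CCNG1 and WWP1, a ubiquitin ligase (1.22 ± 0.21), were the ones that rose. MDM4, the relative of MDM2, was higher by 0.56 and 0.64 without passing the test (limma adjusted p = 0.0683). PPM1D, the WIP1 phosphatase that restrains the p53 response, differed by 1.17 in experiment 1 and -0.20 in experiment 2. TRIM24, a ubiquitin ligase for p53, fell by 0.75 and 1.03.

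Of 16 autophagy and growth-signalling members, 7 rose (43.8%, against 5.18% of all genes) and 1 fell (6.25%, against 6.28%). Their median was 0.34, and without the block 4 were called higher and none lower. DDIT4, which encodes the mTOR inhibitor REDD1, rose from 5.55 and 5.72 to 8.29 and 7.70. PRKAB1, a subunit of the energy sensor AMPK, rose from 7.19 and 7.40 to 9.55 and 9.65, and DRAM1, a lysosomal regulator of autophagy, from 5.92 and 7.04 to 8.81 and 8.71. Both groups of arrays were separated in each of these genes. ATG4C, a protease that processes autophagy proteins, fell by 0.72 and 2.29. In the metabolic and redox list 9 of 24 rose (37.5%, against 5.18% of all genes) and none fell, with a median of 0.51. C12orf5, which encodes TIGAR, a phosphatase that lowers glycolytic flux, rose from 5.98 and 5.65 to 8.74 and 7.89. Beside TP53I3, PRODH, proline dehydrogenase, rose by 2.34 and 1.36, and FDXR, ferredoxin reductase, by 2.02 and 1.51. TXNIP, a thioredoxin inhibitor, rose by 1.58 and 1.33. SCO2 and ALDH4A1 had differences of 0.18 and 0.09.

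The list of secreted, membrane and other targets had the highest share of rises among the 7 p53 lists, 20 of 30 (66.7%, against 5.18% of all genes). It had 1 fall (3.33%, against 6.28%) and a median of 0.98. GDF15, a circulating stress cytokine, rose from 6.82 and 6.76 to 9.68 and 9.97 (3.04 ± 0.19, 8.21-fold). NINJ1, a membrane rupture protein, rose from 6.21 and 5.91 to 7.99 and 7.91, and DGKA, a diacylglycerol kinase, from 5.28 and 5.76 to 7.47 and 7.79. PTGS2, the inducible cyclooxygenase, rose from 5.79 and 6.14 to 7.61 and 8.53 (2.10 ± 0.25). In these 4 genes both p53 on arrays were above both p53 off arrays. SERPINB5, which encodes maspin, rose from 7.29 and 6.09 to 9.51 and 7.83 and was not called without the block (limma adjusted p = 0.175). APOBEC3C, a cytidine deaminase, rose from 4.33 and 4.27 to 8.15 and 7.93, but its value rests on 1 probe set. NOTCH1, EPHA2, CD82, HBEGF, TRAF4 and SULF2 rose by 0.90 to 1.03. THBS1, the antiangiogenic matrix protein thrombospondin-1 often listed as a p53 target, fell from 7.41 and 8.19 to 5.93 and 6.56. Without the block 10 members of the list were called higher and none lower, and without the p53 off array of experiment 2 the blocked fit called 12 higher.

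**Figure D3:**
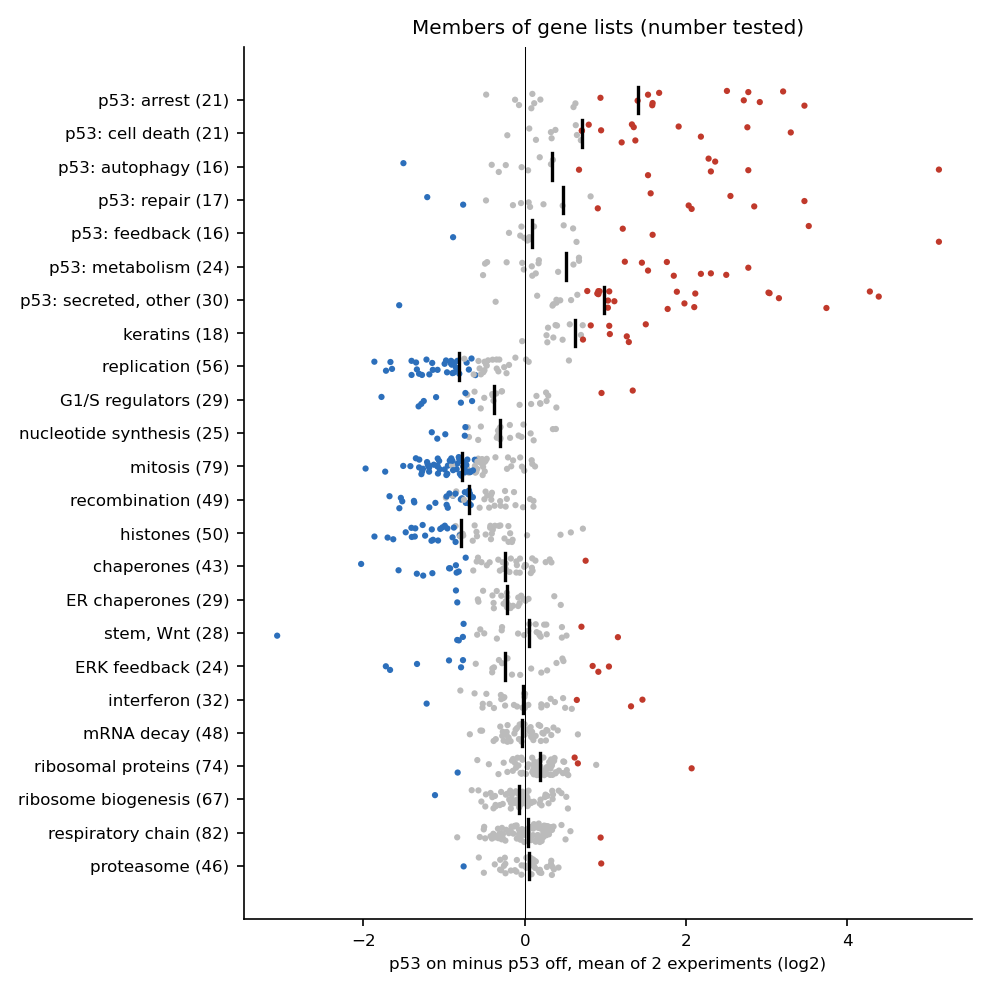
Difference p53 on minus p53 off (log2, mean of 2 experiments, horizontal axis) for the tested members of 24 gene lists, with genes that rose in red, genes that fell in blue, the others in grey and the median of each list as a black bar. The medians run from 1.40 for the p53 arrest list to -0.82 for the replication list. The ribosome biogenesis, respiratory chain and proteasome lists centre near 0, and the ribosomal protein list at 0.19.

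Genes of cell division formed the largest group of falls. Over 7 lists of replication, G1/S control, nucleotide synthesis, mitosis, mitotic transcription factors, recombination and histones, 146 of 297 tested genes fell (49.2%, against 6.28% of all genes) and 2 rose (0.673%, against 5.18%). They made up 16.6% of all genes that fell and 26.6% of those at least 2-fold lower in both experiments. At an unadjusted limma p under 0.05, no gene was higher in the nucleotide, mitosis and recombination lists, and 1 was higher in each of the replication and histone lists. Of all 14026 genes, 3742 passed that p in either direction.

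Of 56 replication genes, 33 fell (58.9%, against 6.28% of all genes) and none rose, with a median of -0.82. Lower in both experiments were 49 of the 56, against 4436 of all 14026. Without the block 8 were called lower, and without the p53 off array of experiment 2 the blocked fit called 13. GINS2 fell from 7.44 and 7.58 to 5.46 and 5.83 (-1.86 ± 0.20) and CLSPN from 6.84 and 7.11 to 5.25 and 5.25 (-1.72 ± 0.17). MCM10, a helicase activator, fell from 7.80 and 7.88 to 6.36 and 5.99. In these genes every p53 on array was more than 1 log2 unit below every p53 off array. CDC6, which loads the helicase, differed by -1.62 and -1.67, UHRF1, which maintains DNA methylation, by -1.47 and -1.33, and POLA1, the catalytic subunit of the priming polymerase, by -1.24 and -1.43. The helicase subunits were uneven: MCM3, MCM4 and MCM6 fell by 1.27, 1.22 and 1.14 on average, MCM5 by 0.83 and MCM2 by 0.61, and MCM7 was not called at -0.57. PCNA, GMNN, which encodes the licensing inhibitor geminin, and LIG1, DNA ligase I, were not called, and LIG1 was higher by 0.59 and 0.51.

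G1/S regulators fell in 8 of 29 cases (27.6%, against 6.28% of all genes) and rose in 2 (6.9%, against 5.18%). Their median was -0.39. Without the block 1 was called lower and none higher, and without the p53 off array of experiment 2 the blocked fit called 3 lower and 1 higher. SKP2 fell in both experiments (-1.78 ± 0.19), and CDC25A from 6.62 and 6.59 to 5.52 and 5.12. E2F8, an atypical repressor, fell by 0.94 and 1.69, while E2F7, its relative and a known p53 target, rose by 0.78 and 1.13. CCNE2, RBL1, which encodes p107, and RB1 fell by 1.10, 1.25 and 0.74. TFDP2, a dimerisation partner of E2F proteins, rose by 1.78 and 0.90, and TFDP1 fell by 0.91 and 0.67. CCND1, CDK4, CCNE1 and E2F1 were not called, with differences between -0.50 and 0.27. In nucleotide synthesis 5 of 25 fell (20%, against 6.28% of all genes), none rose and the median was -0.31. Without the block 1 was called lower, and without the p53 off array of experiment 1 the blocked fit called 2. SAMHD1, which breaks down deoxynucleotides, fell by 1.01 and 1.29, and CAD, which starts pyrimidine synthesis, by 1.34 and 0.83. TYMS and TK1, classical S phase genes, were not called (-0.08 and -0.35).

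Mitosis genes fell in 50 of 79 cases (63.3%, against 6.28% of all genes) and none rose, with a median of -0.78. Of the 79, 70 were lower in both experiments, against 4436 of all 14026. Without the block 4 were called lower, and without the p53 off array of experiment 2 the blocked fit called 21. CENPI fell from 7.57 and 7.18 to 5.68 and 5.11 (-1.97 ± 0.19). HMMR fell from 7.02 and 5.87 to 5.28 and 4.15, with nearly equal differences of -1.74 and -1.72 at levels that differed between the experiments. LMNB1, which encodes lamin B1, fell from 8.74 and 8.29 to 7.49 and 6.53, SMC4, a condensin subunit, by 1.53 and 1.31, KIF14, a kinesin, by 1.34 and 1.36, and MKI67, the proliferation marker Ki-67, by 1.35 and 0.77. CDC2, which encodes CDK1, fell by 0.99 and 0.83. CCNB1, PLK1, AURKB, CDC20, CCNB2, BIRC5 and PTTG1, which act around the entry to and exit from mitosis, were not called, with mean differences between -0.71 and 0.13. Among 9 transcription factors and cofactors of the mitotic program 4 fell (44.4%, against 6.28% of all genes), and 3 were called lower without the block. FOXM1 fell from 8.57 and 8.31 to 7.02 and 7.27, MYB from 6.25 and 6.05 to 4.19 and 4.79, and MYBL1 from 4.73 and 5.04 to 3.19 and 2.85. MYBL2 was not called (-0.68 and -0.31).

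Of 49 recombination, checkpoint and repair genes, 24 fell (49%, against 6.28% of all genes) and none rose, with a median of -0.69. Without the block 4 were called lower, and without the p53 off array of experiment 2 the blocked fit called 5. EXO1, a resection nuclease, fell from 7.35 and 8.09 to 5.75 and 6.33, and RAD54B, a recombination motor protein, by 1.46 and 1.61. BLM, a helicase, fell by 1.32 and 1.71, and CHEK1, a checkpoint kinase, by 0.95 and 1.26. FANCB, of the Fanconi core complex, fell to 3.46 and 3.18, at least 2.39-fold. XRCC5 and XRCC6, which encode the Ku proteins of end joining, differed by -0.11 and 0.11.

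Replication-dependent histone genes fell in 22 of 50 cases (44%, against 6.28% of all genes) and none rose, with a median of -0.78. HIST1H3J fell from 6.36 and 5.31 to 4.59 and 3.67, and HIST1H2BF from 8.89 and 7.33 to 7.51 and 4.97. In both genes experiment 2 lay lower in both groups, and neither was called without the block, where 2 histone genes were. Histone genes are near-identical copies with few probe sets, so signal may be shared between them, and with at least 3 probe sets required 8 were called lower and the median was -0.46. HIST2H2BE, whose transcript is also made outside S phase, was not called and was higher by 0.37 and 1.08.

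Genes known to respond to temperature also moved. CIRBP and RBM3, the cold-inducible RNA-binding proteins, both rose: CIRBP from 7.59 and 7.45 to 8.86 and 8.37 (1.10 ± 0.19), RBM3 from 6.81 and 5.98 to 7.91 and 6.99 (1.06 ± 0.17). Neither was called without the block (limma adjusted p = 0.0813 and 0.299). Of 43 chaperones and cochaperones of the heat shock response, 11 fell (25.6%, against 6.28% of all genes) and 1 rose (2.33%, against 5.18%). Their median was -0.24. CHORDC1, an HSP90 cochaperone, fell from 8.58 and 8.03 to 7.14 and 6.34, HSPH1, the HSP110 chaperone, by 1.40 and 1.28, and FKBP4, an HSP90-bound immunophilin, by 1.33 and 1.19. HSP90AA1, the inducible HSP90, fell by 0.87 and 0.98, while HSP90AB1, the constitutive form, differed by -0.01 and 0.16. HSPA4L, a relative of HSPH1, rose by 0.90 and 0.61. HSF1 and HSPA8 were not called (-0.10 and -0.23). The chaperone count was 1 without the block and 4 without the p53 off array of experiment 2. Every one of these changes runs along with the 32 °C incubation, and whether it would occur at 32 °C without the transgene was not tested.

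**Figure D4:**
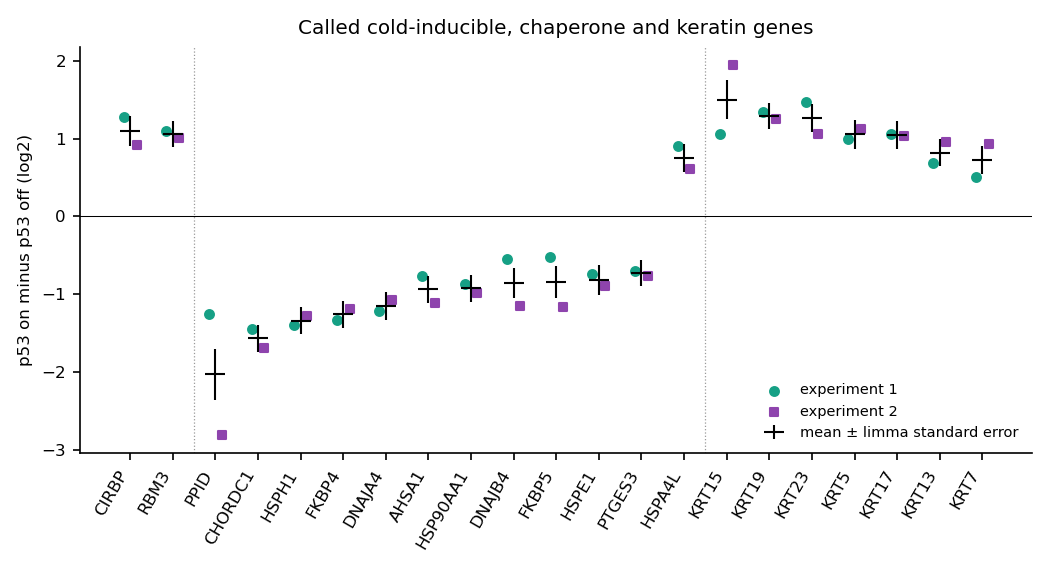
Difference p53 on minus p53 off (log2, vertical axis) in experiment 1 (green circles) and experiment 2 (purple squares), with the mean ± limma standard error in black, for the called cold-inducible genes (left), chaperones (middle) and keratins (right). CIRBP and RBM3 lie near 1, the 11 chaperones that fell lie between -0.73 and -2.03 on average with PPID the most uneven, and the 7 keratins lie above 0, with KRT15 the highest.

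Keratin genes encode the intermediate filaments of epithelia. Of 18 tested, 7 rose (38.9%, against 5.18% of all genes), none fell and the median was 0.63. Higher in both experiments were 16 of the 18, against 4692 of all 14026. KRT15, a keratin of basal and progenitor epithelium, rose from 5.09 and 5.01 to 6.15 and 6.95, and KRT19, of simple epithelium, from 9.75 and 8.64 to 11.09 and 9.89. KRT23 rose from 5.97 and 6.18 to 7.44 and 7.25, and KRT17 by 1.05. KRT5 rose by 1.06 from below the filter value, at least 1.78-fold. KRT20, a marker of differentiated colonocytes, was not called at 0.30 and 0.27. Keratin genes share sequence, so their probe sets may cross-hybridise. Without the block 1 keratin was called, and without the p53 off array of experiment 2 the blocked fit called 2. SERPINB7, a relative of maspin, rose from 3.43 and 4.23 to 5.45 and 5.73. It was 1 of 2 that rose among 7 tested serpins of that clade (28.6%).

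Of 28 stem cell and Wnt target genes, 5 fell (17.9%, against 6.28% of all genes), 2 rose (7.14%, against 5.18%) and the median was 0.05. Without the block 1 was called lower and none higher, and leaving out 1 of the 4 compared arrays gave 1 to 3 lower and 0 or 1 higher. Beside LGR5, AXIN2, a direct target of beta-catenin, fell by 0.84 in each experiment, CD44 by 0.65 and 0.98, and BMI1 and LRIG1 by 0.77 and 0.76. ASCL2, RNF43, ZNRF3, SOX9 and EPHB2, other genes of the crypt base program, were not called, with differences between -0.28 and 0.27. DKK1, a secreted Wnt inhibitor, rose from 7.41 and 7.17 to 8.97 and 7.93, and EPHB4 rose by 0.70. Differentiation genes were called in both directions. MUC2, the gel-forming mucin of goblet cells, rose from 4.77 and 4.43 to 5.99 and 6.02 with 44 of 51 probe sets higher in both experiments, whereas SPDEF, the goblet cell transcription factor, fell from 7.48 and 7.54 to 5.97 and 6.32. In the goblet and secretory list 2 of 26 rose and 2 fell (7.69% each, against 5.18% and 6.28%). Of 29 enterocyte genes 3 fell (10.3%, against 6.28%), GDA, DPP4 and CEACAM5, and none rose. Without the block 1 enterocyte gene was called lower. Of 20 tight junction genes, 3 rose (15%, against 5.18% of all genes) and 2 fell (10%, against 6.28%). CLDN4, TJP3 and CGNL1 rose by 0.90, 0.81 and 0.71, and CLDN2 and MAGI3 fell. Without the block 1 of these was called lower and none higher.

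The ERK feedback list holds genes that dampen the pathway, and also the receptor EGFR, the ligand HBEGF and the transcription factor ETV5. Of its 24 tested genes, 6 fell (25%, against 6.28% of all genes) and 3 rose (12.5%, against 5.18%). Without the block 2 were called lower and none higher, and without the p53 off array of experiment 2 the blocked fit called 3 lower and 2 higher. SPRY4, a Sprouty inhibitor, fell from 6.68 and 7.17 to 5.07 and 5.33 (-1.72 ± 0.19), and DUSP6, an ERK phosphatase, from 8.43 and 8.23 to 6.92 and 6.41 (-1.67 ± 0.18). Both were called with and without the block. SPRY2 fell by 1.66 and 1.01, and ERRFI1, EGFR and ETV5 by 0.94, 0.79 and 0.77. DUSP14, DUSP5 and the ligand HBEGF rose by 1.04, 0.84 and 0.91. Of 38 immediate-early and short-lived transcripts, 5 rose (13.2%) and 2 fell (5.26%), and without the block 2 were called higher and none lower. MAFF, a small Maf factor, rose from 3.05 and 3.23 to 4.63 and 4.56, at least 1.97-fold, ID2, an inhibitor of differentiation factors, fell from 6.64 and 6.23 to 5.30 and 4.32, and JUN fell by 1.05 and 0.67. FOS differed by -1.32 and 0.44, and MYC by 0.29 and 0.13.

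Metabolic and stress lists, some of which share members with the p53 lists, are given here. Of 39 glycolysis and hypoxia genes 8 rose (20.5%, against 5.18% of all genes) and 3 fell (7.69%, against 6.28%). Without the block 1 was called higher and none lower, and leaving out any 1 of the 4 compared arrays left 2 higher and 1 or 2 lower. The largest changes were in DDIT4, PFKFB2 (1.14), P4HA2 (0.94), ENO2 (-1.22) and P4HA1 (-1.04), and LDHA and HK2 were not called. Of 32 interferon genes 3 rose (9.38%) and 1 fell (3.12%). TAP1, a peptide transporter of antigen presentation, rose from 4.82 and 5.58 to 6.68 and 6.64, and IFI35 by 1.42 and 1.22. IFITM1 rose from below the filter value, at least 1.44-fold, and USP18 fell to below it, at least 2.20-fold. None of these 4 was called without the block. LCN2, an iron-binding lipocalin, rose from 7.53 and 7.41 to 9.08 and 9.28. IL18 was the other gene that rose among 28 of the NF-kappaB list (7.14%), in which none fell. Of 31 lipid synthesis genes 2 rose (6.45%), FDFT1 (0.91) and ACAT2 (0.69), and 1 fell (3.23%), ELOVL6 (-1.43). Amino acid and ATF4 targets gave 2 rises (4.65%) and 3 falls (6.98%) of 43, with SESN2 the largest rise and PSPH (-1.22) the largest fall. Of 29 endoplasmic reticulum chaperones 2 fell (6.9%), MANF (-0.85) and DNAJB9 (-0.84), and none rose. Of 13 genes of xenobiotic metabolism 3 rose (23.1%), ALDH1A3 (1.48), ALDH3A1 (0.86) and CYP1A1, the last from below the filter value and so at least 1.19-fold. None was called without the block, and 1 was called higher by the blocked fit without either p53 off array or without the p53 on array of experiment 1. MXI1, a MYC antagonist (0.72), was the 1 of 13 MYC network genes to rise (7.69%), and GDF15 the 1 of 12 TGF-beta family ligands (8.33%).

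The basic machinery of expression and energy showed few calls, below the 11.5% of all genes. None of 48 mRNA decay factors was called by limma with or without the block, and their median was -0.03. At an unadjusted limma p under 0.05, 2 of the 48 were higher and 4 lower, against 3742 of all 14026 genes in either direction. EXOSC8, an exosome subunit, had the smallest p (-0.42 and -0.94). Of 20 proteins that bind AU-rich elements, ZFP36L2, which promotes decay, was the 1 to rise (0.84 and 0.75). Ribosomal protein genes gave 3 rises and 1 fall of 74 with a median of 0.19, against 0.02 over all genes. Of the 74, 46 were higher in both experiments and 9 lower in both, against 4692 and 4436 of all 14026. The largest rise in this list was RPS27L, a p53-induced paralogue of RPS27, by 1.85 and 2.29. RPL26L1 (0.62) and RPS21 (0.66) also rose and RPL34 fell (-0.83), in a family with many near-identical pseudogene copies. Of 67 ribosome biogenesis genes UTP20 fell (-1.11), of 82 respiratory chain genes NDUFV3 rose (0.94), and of 74 mitochondrial ribosome genes MRPL49 and MRPL39 rose. Of 46 proteasome genes PSME4 rose (0.95) and PSMC6 fell (-0.76), and of 37 splicing factors HNRNPH3 fell (-0.70). None of 17 reference genes was called by limma in either fit, and their median was 0.12. At an unadjusted limma p under 0.05, 2 of the 17 were higher and 3 lower, against 3742 of all 14026 genes in either direction.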

How the data were processed

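The authors' deposited values run from -0.85 to 13.14 and were read as log2 signals of single probe sets. Which program, background step and normalization produced them is not given in the sources used here, as far as labels and file headers go. Precision is limited by how few arrays there are. Of 257430 probe sets, 224320 carried 1 gene symbol in the platform annotation and were used, 10159 carried several and 22951 had none. Genes were summarised by the median over probe sets. No scaling was added. limma 3.58.1 in R 4.3.3 was fitted to all 6 arrays with the 3 groups and the experiment number as a replicate block, and p-values were adjusted by Benjamini-Hochberg over 14026 genes. Errors are limma standard errors. For 1 gene alone, exact permutation of 2 against 2 arrays cannot reach 0.05.

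The experiment number is in the labels, without a date. Deviations from the group mean correlated at 0.496 to 0.63 (across genes) between arrays sharing it, so the numbers were taken to pair the arrays. The fit was tested on simulated data, in 20 runs with 200 changed genes each. Named genes were the 15 largest rises and falls called with at least 3 probe sets (small RNAs, pseudogenes, antisense and uncharacterised loci left out), up to 3 called members of each list in each direction (in lists with no call, the one of lowest p), the 6 genes whose experiments differed most and the cell type markers. Other list members are named as examples, chosen after their values were seen. The comparison and the lists were chosen with earlier results of these data known. "At least" folds set a group mean under the filter value to that value. Alternatives left out the block, single arrays or the recovery arrays, added an intensity trend or quantile normalization, averaged probe sets, moved the filter on dim genes or required 3 probe sets.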

Additional observations from a re-analysis of the deposited data

Results flagged for a closer look

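The results below lie in probe sets that carried several gene symbols or none and so entered no gene value. The 118 probe sets shared by C4A and C4B, the nearly identical complement C4 genes, had a median difference of 0.645 between p53 on and p53 off (medians 3.91 and 3.97 with p53 off, 4.97 and 4.60 with p53 on). Many of the 118 repeat the same values, and over the 45 distinct sets of values, on which the median was taken, 24 were higher in both experiments and 11 at least 2-fold higher in both. The 2 probe sets shared by APOBEC3C and APOBEC3D had a median difference of 2.932 (4.82 and 4.44 with p53 off, 7.58 and 7.55 with p53 on), beside 3.74 for the 1 probe set that carries APOBEC3C alone. The 14 probe sets shared by UGT2B15 and UGT2B17, which conjugate steroids, had a median of 1.111 over 8 distinct sets of values, of which 3 were at least 2-fold higher in both experiments. Their medians with p53 off, 2.38 and 2.54, were below the filter value.

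Of 13031 probe sets with no gene listed and a mean signal above the filter value, 122 were at least 2-fold higher in both experiments (0.936%). Among 7548 probe sets with several genes the number was 140 (1.85%). For comparison, 3314 of 166994 probe sets with 1 gene were at least 2-fold higher in both (1.98%).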

How the results depend on the processing

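Without the replicate block, the counts were 126 genes higher and 82 lower in place of 726 and 881, and all were among the blocked calls. Leaving out 1 array at a time gave between 348 and 733 genes higher and between 265 and 896 lower. The mean of probe sets gave 1182 higher and 1474 lower, of which 629 and 796 were among the 726 and 881. With no filter on dim genes 427 and 466 were called. The other 5 alternatives stayed within 1.5 times of both counts, and the counts of genes at least 2-fold changed in both experiments, 197 and 184, ranged from 141 to 222 higher and from 145 to 196 lower. Leaving out an array has no value for those paired counts. Of 132 named genes that were called, 73 were called in all 6 fits without an array and 8 in none of them, and none reversed its sign under any of the 14 alternatives. The number of arrays limits the precision, and falls or rises from below the filter value are bounds.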

Other observations

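Outside the lists, 614 further genes rose and 684 fell. The examples here were chosen after their values were seen. SCGB1A1, the club cell secretoglobin, rose from 4.75 and 4.82 to 7.61 and 7.58 (2.82), GABRP, a GABA receptor subunit of epithelial tissues, from 8.69 and 7.78 to 10.44 and 10.14 (2.05), SCEL, sciellin of the cornified envelope, by 1.86, and IL1RN, the interleukin-1 receptor antagonist, by 1.90. LOXL4, SEMA3B and WFDC2 rose by 2.10, 1.88 and 1.68, and LCN15 and HEPACAM, from below the filter value, at least 5.63-fold and 5.80-fold. ABCA1, the cholesterol exporter, rose by 1.84, and GM2A, the ganglioside activator, by 2.20. PTGES, which acts after PTGS2 in prostaglandin E2 synthesis, rose from 5.03 and 4.76 to 7.03 and 6.34. AXL, a receptor tyrosine kinase, rose by 1.65. ITGA2, an integrin collagen receptor, fell from 9.76 and 8.93 to 7.99 and 7.37, and DPYSL2 and TNIK fell by 1.56 and 1.54. MIR34A, a known p53-induced microRNA gene, rose by 0.62 and 0.98 over the 2 probe sets that carry its symbol.

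In some genes the probe sets moved in opposite directions, which a median does not show. RTTN had 6 probe sets at least 2-fold higher and 7 at least 2-fold lower in both experiments, with a gene value of -0.33 that was not called. SYNE1 had 4 higher and 10 lower. In LAMA3, a laminin chain, the probe sets differed in size rather than direction: 58 of 78 were higher in both experiments and 1 lower in both. Of the 78, 16 were at least 2-fold higher in both, with a gene value of 0.59 (limma adjusted p = 0.0584). Differential use of starts or exons in these genes was not tested.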
